A study of Homo sapiens with 3 samples.

Results

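The HOXA and HOXD genes that ribosomes translated in HEK293T cells were examined, with HOXD11 as the lead gene. A gene was a member when its symbol began with HOXA or HOXD and a number, when its transcript was listed in all 3 libraries, and when its mean deposited CDS count was at least 20. The 7 members reported were among the 8812 transcripts listed in every library, of which 8468 met the same minimum. They were HOXA5, HOXA7, HOXA11, HOXA13, HOXD8, HOXD11 and HOXD13. HOXD8 was nearest to the minimum among them with a mean of 29.7 CDS counts, and HOXA6 lay just outside with 16.3. HOXD9 was listed in Untreated A alone, with 8 CDS counts. The lowest CDS density in any table was 1 RPKM (reads per kilobase, scaled to library depth), so an unlisted HOX gene may still have had reads. Because the members were chosen by their measured CDS counts, and HOXD11 was made the lead gene with its reads past the stop codon known, the values below are a description.

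HEK293T cells derive from human embryonic kidney and express the large T antigen of SV40. In ribosome profiling, mRNA is digested with nuclease and the pieces shielded by ribosomes are sequenced and counted. There were 2 untreated libraries (Untreated A and Untreated B, 0 µg/mL) and 1 library of cells given 500 µg/mL G418 for 24 hours (G418 A). G418 is an aminoglycoside that lowers the accuracy of decoding, and the study asked how it changes stop codon readthrough. The untreated libraries had 5857230 (A) and 9477972 (B) reads, and the G418 library had 7216039. With 1 treated library no test between conditions was possible. The ± sign gives the SD over Untreated A and B around their mean, and intervals are exact 95% Poisson intervals of the reads in the region, which cover counting error only and leave out the error of the CDS density. Whether the untreated libraries came from separate cultures is not in the labels, but the study describes its replicates as biological. Of 9 genes that mark this line, 8 met the CDS minimum, including the intermediate filaments VIM (2151, 2163 and 1710 RPKM in Untreated A, Untreated B and G418 A) and KRT8 (479.5, 532 and 311.8 RPKM). PAX2 was listed in Untreated B alone. Of 11 markers of blood, liver, fibroblasts, endothelium and muscle, COL1A1 alone was listed, at 7.99 to 10.7 RPKM. The lowest of the 8 line markers were near COL1A1. They were LHX1 (8.05, 7.37 and 8.40 RPKM) and EYA1 (7.04, 5.26 and 8.65 RPKM).

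HOX genes encode homeodomain transcription factors that give cells their position along the body axis. They lie in clusters, HOXA and HOXD among them, and their order within a cluster follows the order in which they are used from anterior to posterior. Low-numbered paralog groups act anteriorly, and the high-numbered, Abdominal-B-like groups act in the posterior trunk, the limbs and the urogenital tract. The HOX11 paralogs, HOXA11 and HOXD11 among them, are needed for the metanephric kidney and the forearm. Readthrough means that a ribosome decodes the normal termination codon (NTC) as an amino acid and goes on to the next stop codon in frame, in the 3′UTR (3′TC). The ribosome readthrough score (RRTS) is the ribosome density between NTC and 3′TC over the density of the CDS. Readthrough reads are all reads assigned to that region, whatever their origin. The score is given here in percent, so that 100% means a readthrough region as densely occupied as the CDS. The study's own, higher read minimum for this score was not applied here.

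The sequence around each NTC is shown for the 5 members that had readthrough reads in any library, because the stop codon and the nucleotide after it set the classes that are compared. Each run has 30 nt, is written as DNA in the sense of the gene and was read from hg38, with the stop codon and the next nucleotide in capitals. HOXD11, HOXA5 and HOXA7 shared UGA followed by G, the signal of 19.1% of all transcripts that met the CDS minimum (1617 of 8468). HOXA11 ended in UAA followed by G and HOXA13 in UAA followed by U. HOXD8 (UAA followed by C) and HOXD13 (UGA followed by U) had no readthrough read.
HOXD11, chr2:176109125-176109154, plus strand: ggaaaccccttatttTGAGagctccaggaa
HOXA5, chr7:27141823-27141852, minus strand: ggggccttccgtcccTGAGtatctgagcgt
HOXA7, chr7:27154897-27154926, minus strand: gaagacgaggaggaaTGAGgggccgatccg
HOXA11, chr7:27182784-27182813, minus strand: gcaaatccactcctcTAAGactccagcggc
HOXA13, chr7:27198186-27198215, minus strand: ctgaaaaccactagtTAATggattaaaaat

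The 3′TC of HOXD11 is a UAG, shown because few reads lay after it. The run covers this stop codon, in capitals, with its surroundings.
HOXD11 3′TC, chr2:176109440-176109466, plus strand: cggcggggtctgTAGgaagttgggccg

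HOXD11 was the only member with readthrough reads in every library, with and without G418. Its readthrough region held 27 and 57 reads in untreated cells (A and B) and 79 with G418. The other 6 members together had 0, 0 and 15. HOXD11 therefore gave all of the members' readthrough reads in untreated cells and 79 of 94 with the drug. Of all transcripts that met the minimum, the share with at least 1 readthrough read was 18.5% in Untreated A, 17.4% in Untreated B, 8.43% in both at once and 64.9% with G418. Of the 7 members, 1 had reads in both untreated libraries and 5 in G418 A.

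**Figure D1:**
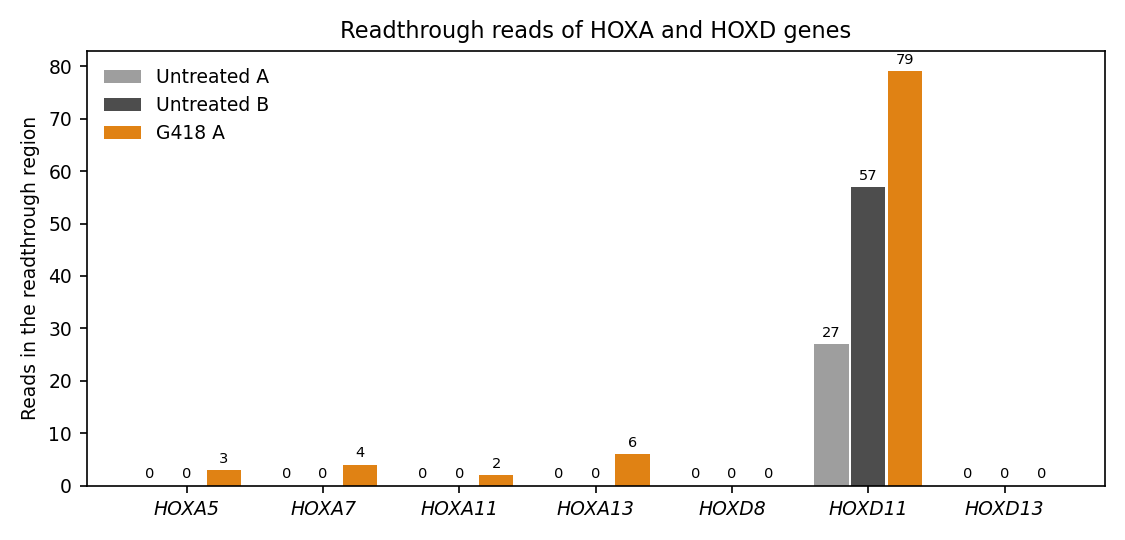
Reads in the readthrough region (NTC to 3′TC) of each of the 7 members, 1 bar per library with its number of reads above it. HOXD11 had 27, 57 and 79 reads, and no other member had a read in an untreated library or more than 6 in G418 A.

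The stop codon of HOXD11 (transcript ENST00000249504.6) lies at chr2:176109140-176109142 in the second and last exon, and its readthrough region at chr2:176109143-176109454 in the 3′UTR. The region has 312 nt, against a median of 69 nt over all transcripts that met the minimum and 84 nt over those with UGA followed by G. A longer region was annotated for 3.15% of all transcripts, and for 1 member, HOXA7 (510 nt). The RRTS leaves out the first 6 nt, so 306 nt were counted. The region had a GC content of 61.2%, and 2 ATG codons lay in the CDS frame. Every 28-nt window of it (285 of 285) occurred at a single place on the assembled nuclear chromosomes of hg38. Alternate, unplaced and mitochondrial sequences were not searched.

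The RRTS of HOXD11 was 68.4% (interval 45.1 to 99.5) and 90.7% (68.7 to 117.6) in the untreated libraries A and B. With G418 it was 147.7% (116.9 to 184.1). The untreated intervals overlapped each other widely, and the G418 interval met that of Untreated B at its edge alone. Relative to the untreated mean of 79.6% ± 15.8 (SD, n = 2), the G418 value was 1.86 times as high and 68.1 percentage points higher. At the CDS density, 39.5, 62.8 and 53.5 reads would have fallen in the region, so the untreated counts were below that number and the G418 count above it. The CDS density of HOXD11, the denominator of the score, was 22.0 and 21.7 RPKM in untreated cells and 24.2 RPKM with G418. These CDS values rest on 127, 202 and 172 reads and spanned a narrower range than the densities of the readthrough region, which were 15.1, 19.7 and 35.8 RPKM.

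Transcripts with the same stop signal had lower scores as a class. The 1617 transcripts that end in UGA followed by G had a pooled RRTS (all their readthrough reads over the number expected at their CDS densities) of 1.20% and 1.15% without the drug and 22.8% with it. The median of their scores was 0 without G418, in either library, and 16.1% with it. The pooled value was 19.4 times as high with G418 as in the untreated mean and 21.6 percentage points higher. HOXD11 thus had a larger difference in percentage points and a smaller ratio than its class. Within the class, HOXD11 had the most readthrough reads of any transcript in each untreated library and the 32nd most in G418 A. By RRTS it was 14th and 9th without G418 and 44th with it. Among all 8468 transcripts it was 121st, 60th and 340th by RRTS, and 8th, 3rd and 180th by reads, a number that grows with the length of the region and the CDS density. HOXD11 was picked out for these values, so its place carries no test.

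**Figure D2:**
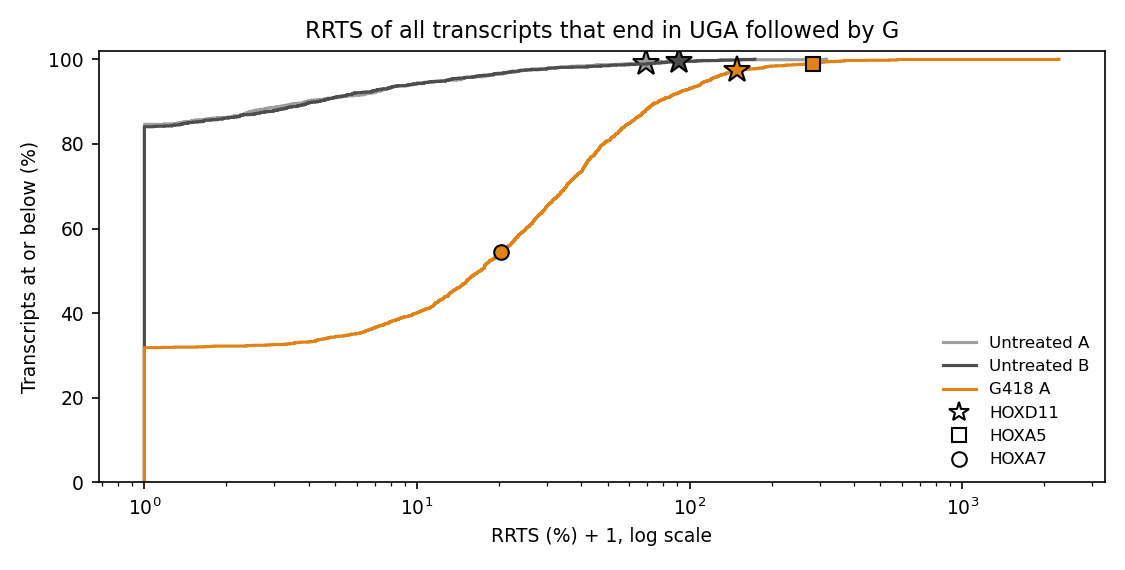
Cumulative share of the 1617 transcripts that end in UGA followed by G, by RRTS in percent plus 1 on a log axis, 1 line per library, with symbols for the members that had readthrough reads. HOXD11 (stars) lies at the upper end in all 3 libraries, at 68.4%, 90.7% and 147.7%, HOXA5 (square) lies beyond it on the G418 line at 282.6%, and HOXA7 (circle) near the middle of that line at 19.4%.

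Few reads on HOXD11 lay after the 3′TC. The 134 nt of deposited 3′UTR after the region held 0 reads in either untreated library and 3 in G418 A. The deposited 3′UTR had 440 nt, against 612 nt in GENCODE version 44, so any reads further downstream were not counted. At the density of the readthrough region, 11.8, 24.96 and 34.6 reads would have fallen there. The density after the region was at most 4.70 RPKM (Untreated A) and 2.91 RPKM (Untreated B) by the upper interval bounds, and 3.10 RPKM (0.640 to 9.07) in G418 A. The annotated 5′UTR of 64 nt had 6, 4 and 13 reads, a density of 16.0, 6.59 and 28.2 RPKM, and its intervals overlapped between all 3 libraries. The tables give no reads by position, so the reading frame of these fragments was not analysed.

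**Figure D3:**
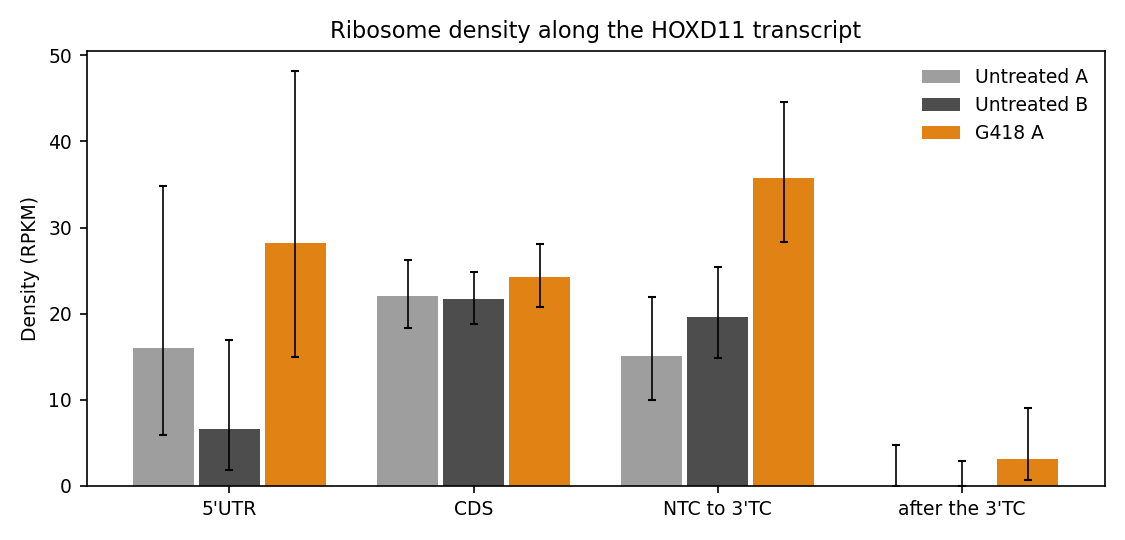
Ribosome density in RPKM over 4 segments of the HOXD11 transcript in each library, with exact 95% Poisson intervals as error bars. The CDS lies between 21.7 and 24.2 RPKM in all libraries, the readthrough region is at 15.1 and 19.7 RPKM untreated and 35.8 RPKM with G418, and the 3′UTR after the 3′TC has 0, 0 and 3.10 RPKM.

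The annotation offers other transcripts over the same bases. In GENCODE version 44 on hg38, the whole readthrough region of HOXD11 also lies in an exon of another HOXD11 transcript (ENST00000498438.1) for which no CDS is defined. The 216 nt next to the stop codon, 69.2% of the region, lie in the first exons of a pair of HOXD10 transcripts on the same strand (ENST00000490088.2 and ENST00000549469.1), again with no CDS defined. How many of the HOXD11 reads came from these HOXD11 and HOXD10 transcripts was not tested. The regions of HOXA5, HOXA11 and HOXD8 also lay wholly in exons of other transcripts of the same gene. That of HOXA7 did so for 24.7% of its length. No annotated CDS overlapped the region of any of the 7 members. HOXD10 itself, the next gene of the cluster, was listed in no library. Per the study's methods, transcripts that overlapped a nearby gene's transcript on the same strand were discarded. A gene can thus be unlisted for its annotation as well as for low density, and which applied to HOXD10 was not tested. The study used an earlier GENCODE version, and HOXD11 was listed although it overlaps the HOXD10 transcripts in version 44. Whether that overlap was annotated in the earlier version was not tested.

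Among the central members, HOXA5, which acts in lung and cervical patterning, had 0, 0 and 3 readthrough reads (Untreated A, Untreated B, G418 A) over 18 counted nt, a G418 RRTS of 282.6% (58.3 to 825.9). At its CDS density 1.06 reads would have fallen there, so this score rests on a very short region. HOXA7 had 0, 0 and 4 reads over 504 counted nt, and its G418 RRTS was 19.4% (5.29 to 49.7). Its untreated counts of 0 allowed up to 12.4% in Untreated A and 7.43% in Untreated B by the upper interval bounds. The region of HOXA7 lies wholly opposite an exon of the antisense RNA HOXA-AS3, and 11 of its 483 windows of 28 nt occurred elsewhere in hg38. HOXD8 had no readthrough read, but at its CDS density fewer than 2 would have fallen in its 27 counted nt in any library.

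Among the posterior members, HOXA11, the paralog of HOXD11 in the HOXA cluster, had 0, 0 and 2 readthrough reads over 42 counted nt and a G418 RRTS of 59.3% (7.18 to 214.2). Its untreated CDS density was close to that of HOXD11. At that density 4.62 reads in Untreated A and 8.55 in Untreated B would have fallen in its short region. The untreated counts of 0 allowed an RRTS of HOXA11 up to 79.8% in Untreated A and 43.2% in Untreated B by the upper interval bounds. In Untreated B this bound was below the lower bound of HOXD11 (68.7%), and in Untreated A it was above it (45.1%). HOXA13, which acts in the digits and the genital tract, had 0, 0 and 6 reads over 78 counted nt, against 3.85 at its CDS density in G418 A, and its RRTS there was 155.8% (57.2 to 339.0). The untreated counts of 0 allowed up to 141.1% in Untreated A and 48.8% in Untreated B for HOXA13. Its whole 3′UTR of 3828 nt held 0, 1 and 12 reads, so 6 of 12 lay in the readthrough region. HOXD13, which patterns the digits, had no readthrough read, and fewer than 1 would have fallen in its 24 counted nt in each library. Readthrough was thus not detectable at this depth for HOXD8 and HOXD13.

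In G418 A, 3 of 7 members had an RRTS above 100%: HOXD11, HOXA5 and HOXA13. Of all transcripts that met the minimum, 7.88% did. The lower interval bound was above 100% for HOXD11 alone of the 3.

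Taken over all 7 members, the pooled RRTS was 34.3% (22.6 to 49.97) and 42.7% (32.4 to 55.3) without G418 and 112.2% (90.6 to 137.3) with it. Over all 8468 transcripts it was 1.66%, 1.32% and 21.6%. HOXD11 decided the members' value. Without it, the other 6 had 0 reads in Untreated A (interval 0 to 9.43%) and 0 in Untreated B (0 to 5.22%). In G418 A they had 15 reads or 49.5% (27.7 to 81.6). That was 8.30 times the mean untreated floor, set at 3 reads per library (7.67% and 4.25%). This ratio leaves out the counting error of the 15 reads and is not a lower bound. The other members with UGA followed by G, HOXA5 and HOXA7, had 0, 0 and 7 reads, and their pooled G418 RRTS of 32.3% (12.98 to 66.5) had the 22.8% of their class inside its interval. The 7 HOXB and HOXC genes that met the minimum had 0, 6 and 5 readthrough reads, a pooled RRTS of 0, 5.58% (2.05 to 12.2) and 6.63% (2.15 to 15.5). None of the 7 had an RRTS above 100% in G418 A. HOXB2 held 5 of the 6 reads of Untreated B.

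Reads after the 3′TC differed among the members. HOXA11 had 6, 8 and 11 reads in the 1233 nt after its readthrough region, in contrast to 0, 0 and 2 within it. HOXA13 had 0, 1 and 6 over 3750 nt, and HOXD8 0, 2 and 3 over 1050 nt. HOXA5 had 1, 0 and 1 and HOXD13 had 0, 0 and 1, while HOXA7 had none in any library.

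For comparison with single genes, 390 other transcripts ended in UGA followed by G and had a readthrough region from 0.5 to 2 times as long as that of HOXD11. Of these, 85 and 75 had a readthrough read without G418 (A and B) and 318 had one with it, and in each library 1 of the 390 had a higher RRTS than HOXD11. Among these 390 length-matched transcripts, the 3 with the most similar RRTS over the 3 libraries, by Euclidean distance of log2(RRTS in percent + 1), were ZFPM1, LRRC45 and GRAMD1A. ZFPM1, a cofactor of GATA factors, was at a distance of 1.53, with 7, 11 and 12 readthrough reads and an RRTS of 158.1%, 153.4% and 223.2%. LRRC45 followed at 2.31, with 1, 3 and 5 reads and 24.5%, 32.3% and 71.0%. GRAMD1A, a sterol transport protein, was at 4.44, with 2, 5 and 14 reads and 11.3%, 11.8% and 28.6%. All 3 had fewer readthrough reads than HOXD11 in every library.

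The CDS densities describe how strongly the members were translated. In untreated cells HOXD11 was the highest of the 7, at 21.9 RPKM ± 0.266 (SD, n = 2), followed by HOXA11 at 20.1 ± 1.90. The gap between this pair was smaller than the SD of HOXA11. HOXA5 (11.5 ± 2.31), HOXA7 (10.2 ± 0.214), HOXA13 (7.98 ± 3.19), HOXD8 (4.96 ± 2.41) and HOXD13 (4.08 ± 0.208) came next, and the untreated values of each neighbouring pair among these 5 overlapped. In G418 A the order was HOXD11 (24.2 RPKM), HOXA11 (11.1), HOXA5 (8.17), HOXA13 (6.84), HOXA7 (5.67), HOXD13 (4.30) and HOXD8 (3.47).

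**Figure D4:**
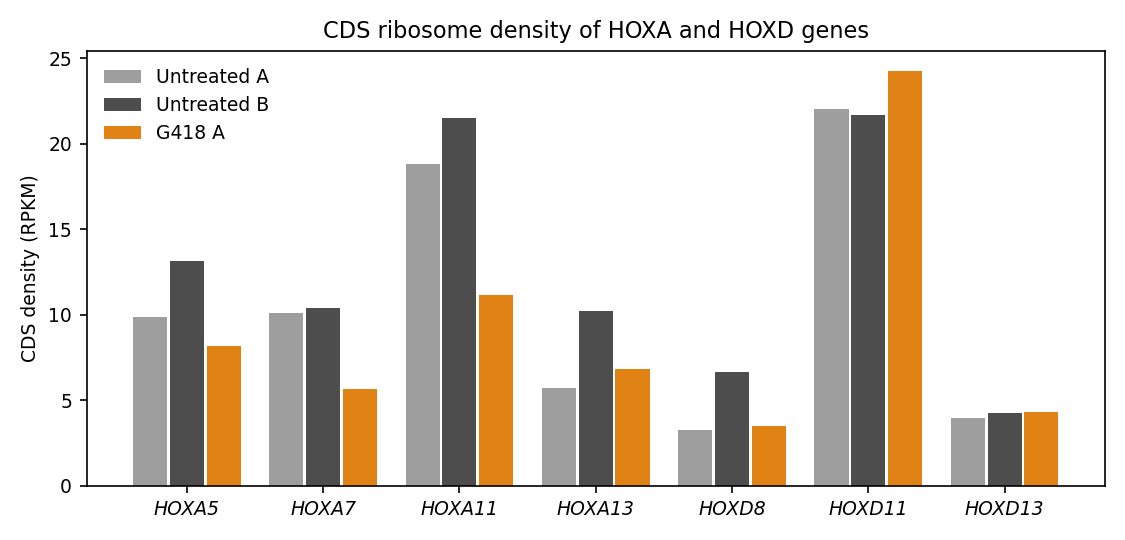
CDS density in RPKM of the 7 members, 1 bar per library, with no error bars because each bar is a single library. HOXD11 lies between 21.7 and 24.2 RPKM in all 3 libraries, while HOXA11 lies at 18.8 and 21.5 RPKM in untreated cells and 11.1 RPKM with G418.

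Changes in CDS density are given as log2(RPKM + 0.5) of G418 A minus that of the untreated mean, a scale that understates the change of low genes. HOXA11 was at 18.8 and 21.5 RPKM untreated and 11.1 with G418, a difference of -0.83. HOXA7 was at 10.1, 10.4 and 5.67 RPKM, a difference of -0.80. HOXA5 was at 9.85, 13.1 and 8.17 RPKM, a difference of -0.47. In these 3 genes the G418 value lay below both untreated values, as it did in 25.3% of all transcripts. HOXA11 and HOXA7 differed by more than 3 times the log2 difference between their untreated libraries (0.19 and 0.04), and HOXA5 by little more than it (0.40).

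In HOXD11 and HOXD13 the G418 value lay above both untreated values, as it did in 47.7% of all transcripts. HOXD11 differed by 0.15 and HOXD13 by 0.07, the latter less than the 0.09 between the untreated libraries. Of the 7 members, 0 were at least 1 log2 higher, against 2.52% of all transcripts, and 0 were at least 1 log2 lower, against 0.425%. HOXA13 (-0.21) and HOXD8 (-0.46) lay between their untreated values. Between the untreated libraries none of the 7 was 1 log2 or more apart, against 2.68% of all transcripts.

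The median log2 difference of the 7 members was -0.46, against 0.09 over all transcripts. Relative to Untreated A alone it was 0.08 and relative to Untreated B alone -0.65, so its direction depended on the untreated library. In 6 of 7 members the CDS density was higher in Untreated B than in Untreated A, as it was in 58.5% of all transcripts, with a median log2 difference of 0.19, against 0.07 over all transcripts. Fewer ribosomes on each mRNA and less mRNA cannot be told apart in these libraries.

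The genes that act with or upstream of HOX genes are given by counts, for the same minimum and the same log2 difference in CDS density. Over all transcripts, 2.52% were at least 1 log2 higher and 0.425% at least 1 log2 lower, and the median difference was 0.09. Whether the lists below differ from these shares was not tested. Of the HOX cofactors (the PBX, MEIS and PKNOX genes), 6 of 9 were measured, with differences from -0.42 to 0.85 and none 1 log2 or more apart. Of 30 subunits of the Polycomb complexes, which keep HOX clusters silent, 24 were measured with a median of 0.27, and 1, PHC2, was at least 1 log2 higher (3.83, 4.69 and 9.10 RPKM). A further list held 13 genes of the trithorax group, the methylation of H3K4 or H3K79 and the KDM6 family, which keep HOX clusters active. Of these, 11 were measured with a median of 0.13. WDR5, a shared subunit of the H3K4 methyltransferase complexes, was the one at least 1 log2 higher, at 45.8, 49.0 and 99.1 RPKM, a difference of 1.06, and 1.10 and 1.01 over each untreated library. PHC2 fell short of this over Untreated B (0.89). None of the measured Polycomb and trithorax genes was at least 1 log2 lower. Of 12 genes of the developing kidney, in which HOX11 proteins act, 5 were measured, with differences between -0.17 and 0.57. Of the 7 HOXB and HOXC genes, HOXB2 was at least 1 log2 higher, at 6.58, 12.4 and 21.5 RPKM, a difference of 1.14 that was 0.77 over Untreated B alone. The other 6 lay between -0.25 and 0.75.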

How the data were processed

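Ribosome profiling tables of 3 HEK293T libraries were used. Per the study's methods, reads with the same sequence and molecular identifier were collapsed, noncoding RNA was removed, and the rest was aligned with STAR to hg38, with primary alignments of multimapping reads kept. CASAVA 1.8 is named in the submitters' processing notes. Fragments of 28 to 35 nt were placed at the A site of a single transcript per gene. The authors deposited whole-number counts, RPM values, RPKM densities (RPM per kilobase) and the ratio RRTS.

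Reads were recovered from RPM exactly (100% whole multiples of the value of 1 read, tolerance 0.01). The deposited CDS counts ran 1 lower for 9080 transcripts in Untreated A. Groups followed the labels. With 1 treated library no test was made, and changes past 1 log2 (pseudocount 0.5 RPKM) were counted. A self-test on simulated data recovered known changes. edgeR 4.0.16 and DESeq2 1.42.0 gave scaling factors alone. Python 3.11.15 and SciPy 1.17.1 were used. Sequences and overlaps came from hg38 and GENCODE version 44. Region lengths and stop signals matched the tables for all 7 members. The whole 3′UTR was shorter in the tables for HOXD11 (440 against 612 nt) and HOXA11 (1275 against 1639 nt).

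The members and gene lists were chosen with earlier results of these data known. Of the genes that met the member rule, 1 is not reported here and was left out of all values over the members, as was 1 gene of the lists. All other members were named. Other genes of the lists were named when past 1 log2 over the untreated mean. PHC2 and HOXB2 passed it there and over Untreated A, but not over Untreated B. Some cell type markers, HOXA or HOXD genes outside the members and genes overlapping a region were also named. The rest were the 3 most like HOXD11 in RRTS out of 390 transcripts with its stop signal and a region 0.5 to 2 times as long.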

Additional observations from a re-analysis of the deposited data

How the results depend on the processing

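The pooled RRTS of the members in G418 A was 2.91 times that of the untreated mean, and 2.63 to 3.27 times when either untreated library was left out. HOXD11 set it. Without HOXD11 the ratio was 8.30 over the untreated floor of 3 reads per library, and the G418 value was 49.5%. With a minimum of 100 mean CDS reads, which left HOXD11 and HOXA11, they were 2.02 and 142.5%, and members with readthrough reads in G418 A numbered 2 in place of 5. Over the whole 3′UTR the G418 value was 22.6%, and for HOXD11 alone 106.6%. The HOXD11 ratio of 1.86 ranged from 1.63 to 2.16 with an untreated library left out. The members' median CDS difference of -0.46 ranged from -0.65 without Untreated A to 0.079 without Untreated B. TMM and median-of-ratios scaling moved the HOXD11 CDS difference from 0.15 to 0.050 and 0.041, and the median of all transcripts from 0.09 to 0.00 and -0.01. The other 45 recomputed values stayed within the spread of the untreated libraries, the counting interval or 1.5 times the count. No paired analysis was possible because the groups share only the replicate letter A. Depth limits the short regions of HOXA5, HOXD8 and HOXD13 most.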
